A study of Homo sapiens with 42 samples.

Results

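RCSD1, NUP210, HS6ST2, PTPRS, TMEFF2 and TNFAIP6 are 6 of the 60609 genes counted in 786-O cells, and they were selected on the measured values of these data: each had one of the largest changes in a knock-in (KIN) clone of batch 1. In both clones RCSD1, NUP210, HS6ST2 and PTPRS were close to silent and TMEFF2 and TNFAIP6 were switched on, and the question followed here is what the same 6 genes did when HIF-α was added to unedited cells in either batch. 786-O is an established line of clear cell renal cell carcinoma (ccRCC) that lacks VHL, so its HIF-2α is stable, and that has no functional HIF-1α. Every group, WT included, shares this background, to which the HIF-1α transgenes described below add HIF-1α. Poly-A RNA-seq was done in 2 batches, 42 libraries in 14 groups of 3.

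Batch 1 (27 libraries) held WT cells, 6 transgene lines and a pair of clones, HIF-1β KIN and HIF-2α KIN. In the clones both alleles of ARNT (HIF-1β) or EPAS1 (HIF-2α) carry a V5-Halo tag, and each KIN line is a single clone (A21 and A31), so clone and edit cannot be told apart. The transgenes encode HIF-1α or HIF-2α with the V5-Halo tag, as the wild type, with a substitution reported to impair binding to DNA (R30E in HIF-1α, R27E in HIF-2α), or as the dimerization mutants HIF-1αDM (R170A/V191D) and HIF-2αDM (R171A/V192D). They were put into WT cells by PiggyBac transposition, driven by the L30 promoter and selected with puromycin, which WT cells were not, so transgene and selection cannot be told apart against WT. Batch 2 (15 libraries) held WT cells and lines of the same kind with HIF-1α, HIF-2α, HIF-2α/1α (structured domains of HIF-2α with the intrinsically disordered region, IDR, of HIF-1α) or HIF-1α/2α (the converse). The labels give a single line per transgene in each batch. Transgene and line therefore cannot be told apart in any comparison between lines.

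HIF-α subunits pair with HIF-1β and bind hypoxia response elements, short sites with an RCGTG core, next to the genes they activate. In kidney cancer without VHL, HIF-2α stays active in normal oxygen and drives genes of growth, vessels and metabolism. The 6 genes do unrelated work. RCSD1 encodes CapZIP, a partner of the actin-capping protein CapZ, and NUP210 is a membrane-spanning nucleoporin of the nuclear pore. HS6ST2 adds 6-O-sulfate to heparan sulfate chains, and PTPRS is a receptor tyrosine phosphatase of the LAR family that binds such chains. TMEFF2 is a membrane protein with EGF-like and follistatin domains, and TNFAIP6 (TSG-6) is a secreted protein that binds hyaluronan and loads it with the heavy chains of inter-α-inhibitor.

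The genes lie on 5 chromosomes (hg38, GENCODE release 44): RCSD1 at chr1:167630093-167708696 on the plus strand, TNFAIP6 at chr2:151357592-151380046 on the plus strand, TMEFF2 at chr2:191949043-192194933, NUP210 at chr3:13316235-13420322, PTPRS at chr19:5158495-5340812 and HS6ST2 at chrX:132626015-132961395, the last 4 on the minus strand. Counting ignored strand, but no annotated gene that overlaps a member had more than 6 reads in any library. RefSeq promoter sequence (GRCh38.p14) was matched for 6 of 6, and the 250 bases before each start were searched on both strands for ACGTG and GCGTG, the cores of the hypoxia response element, and for the palindrome CACGTG, which contains ACGTG and is also an E-box. Of 35116 promoters, 18.5% held ACGTG, 32.2% GCGTG and 6.34% CACGTG. PTPRS, TMEFF2 and NUP210 are shown because they held a match, with matches in capitals. They lie at chr19:5340813-5341062, chr2:192194934-192195183 and chr3:13420323-13420572, all on the minus strand, and read 5′ to 3′.
PTPRS: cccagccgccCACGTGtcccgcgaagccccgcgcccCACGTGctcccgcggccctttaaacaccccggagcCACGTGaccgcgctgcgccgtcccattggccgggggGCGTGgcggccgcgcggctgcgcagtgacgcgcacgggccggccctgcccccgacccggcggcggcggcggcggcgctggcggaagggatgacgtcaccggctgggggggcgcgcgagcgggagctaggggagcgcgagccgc
TMEFF2: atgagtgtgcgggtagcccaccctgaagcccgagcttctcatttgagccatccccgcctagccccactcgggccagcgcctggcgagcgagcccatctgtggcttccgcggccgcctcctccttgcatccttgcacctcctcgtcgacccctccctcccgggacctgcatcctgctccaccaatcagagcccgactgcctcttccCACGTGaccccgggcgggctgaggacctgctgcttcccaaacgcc
NUP210: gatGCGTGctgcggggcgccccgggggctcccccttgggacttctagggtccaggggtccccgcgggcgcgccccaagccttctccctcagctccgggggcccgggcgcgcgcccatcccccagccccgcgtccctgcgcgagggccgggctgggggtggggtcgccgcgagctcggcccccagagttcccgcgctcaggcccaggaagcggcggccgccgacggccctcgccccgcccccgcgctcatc
PTPRS held CACGTG at -240, -214 and -179 from its start and GCGTG at -143, TMEFF2 held CACGTG at -45, and NUP210 held GCGTG at -247. RCSD1, HS6ST2 and TNFAIP6, whose counts also changed in lines with HIF-α transgenes, held none of these letters in the same window. The promoters also differed in CpG dinucleotides, with 44 in PTPRS and 33 in NUP210 against 18 in TMEFF2, 11 in RCSD1, 2 in TNFAIP6 and 1 in HS6ST2, where the median promoter had 11. Whether HIF binds any of these sites was not tested.

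Values are read counts normalised within a batch by edgeR's TMM method, and the batches were never mixed. Libraries held between 42377600 and 101187000 counted reads in batch 1 and between 76366800 and 109642000 in batch 2. A count of 3, taken as the smallest detectable, equals 2.10 to 4.74 normalised counts in batch 1 and 2.43 to 3.57 in batch 2, a limit for counting error only. Summed markers of renal epithelium and ccRCC (PAX8, PAX2, KRT8, KRT18, CDH6, VIM, CA9, MET) ran from 2779 to 5621 CPM over all libraries. CPM are reads scaled to the library total after its TMM adjustment. Of these markers, 7 or 8 of 8 were over the floor. The sum hides CA9, which was not stable. In batch 1 its mean normalised count was 0.968 in WT, 1.93 in HIF-1β KIN, 0.282 in HIF-2α KIN and 4250 in HIF-1α. In batch 2 it was 0 in WT and 2048 in HIF-1α. Summed immune markers (7 genes) stayed at or below 0.610 and endothelial ones (5 genes) at or below 0.864 CPM. Fibroblast markers (5 genes, of which 3 or 4 were over the floor) summed to 12.1 to 18.7 CPM in WT of batch 1, 27.1 to 40.0 in HIF-2α KIN, 24.6 to 36.1 in HIF-1α, 23.2 to 38.5 in HIF-2α and 11.1 to 24.1 in the other batch 1 lines. In batch 2 they summed to 8.56 to 11.4 in WT, 5.90 to 7.23 in HIF-1α/2α and 11.5 to 16.7 in the other lines. The markers did not all move alike. In HIF-2α KIN against WT, PDGFRB had 1075 ± 287 and 150.1 ± 25.5 normalised counts (SD, n = 3 each). COL1A1 had 1191 ± 189 and 778 ± 238, and LUM 46.4 ± 23.3 and 72.3 ± 23.5. Libraries of COL1A1 and of LUM overlapped between these groups. The part of these marker differences in the results below was not tested. One label gives the genotype of the HIF-2αDM libraries as HIF-1α. These libraries had 43759 to 54273 counts of EPAS1 and 182 to 210 of HIF1A, where WT had 12563 to 16596 and 231 to 257, and they are treated as HIF-2αDM.

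Tests used edgeR's quasi-likelihood test in 1 fit per batch over 23410 genes in batch 1 and 28724 in batch 2, with Benjamini-Hochberg adjustment. A call needed an adjusted p no higher than 0.01 and a change of 2-fold or more. The KIN clones against WT are described only, since these contrasts chose the genes. The batch 1 transgene lines against WT are also described only, since the WT libraries took part in that choice.

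RCSD1 was almost unread in both clones. Its 3 WT libraries of batch 1 had 191.6, 192.5 and 242 normalised counts, HIF-1β KIN had no read in any library, and HIF-2α KIN had 1 read in all, in replicate 2. Against 3 counts per library, the level in HIF-1β KIN lay at least 69.7-fold lower than that of WT, and in HIF-2α KIN the ratio of pooled reads was 560-fold, with an exact 95% counting interval of 100 to 22161. Both clones thus lay far below every other group of batch 1 except the HIF-2α line. In bulk RNA, fewer cells with a transcript and less transcript per cell cannot be told apart.

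NUP210, with the highest level per length of the 6 genes in WT (4.36 ± 0.47 CPM per kb of exon, SD, n = 3), fell by a similar order. WT had 3461, 3949 and 4305 normalised counts, HIF-1β KIN 5.38, 2.13 and 18.8, and HIF-2α KIN 15.7, 20.0 and 49.9. Pooled reads were 411-fold lower in HIF-1β KIN (interval 286 to 615) and 122-fold lower in HIF-2α KIN (98.9 to 153). These intervals cover counting error only. The libraries of each clone spread more widely, with 2 to 22 reads in HIF-1β KIN and 12 to 59 in HIF-2α KIN. Every library of both clones lay under 50 normalised counts.

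HS6ST2 and PTPRS were lower in HIF-2α KIN than in HIF-1β KIN. HS6ST2 had 184, 134 and 167 normalised counts in WT, 8.61, 17.0 and 0.854 in the HIF-1β KIN clone and a single read in all 3 libraries of the HIF-2α KIN clone. The pooled ratio to WT was 19.9-fold lower (13.3 to 31.0) in the HIF-1β KIN clone and 433-fold lower (77.5 to 17141) in the HIF-2α KIN clone. PTPRS had 142, 154 and 140 normalised counts in WT, 4.30, 19.2 and 7.69 in the HIF-1β KIN clone and 0, 2.86 and 2.54 in the HIF-2α KIN clone, 14.2-fold (9.86 to 21.1) and 76.5-fold (32.6 to 237) lower. These intervals also cover counting error only. The spread between libraries was again wider than counting for HS6ST2 in HIF-1β KIN, where 1 library held 1 read and another 16.

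TMEFF2 and TNFAIP6 were rare in WT and rose in both clones. TMEFF2 had 7.43, 6.77 and 16.2 normalised counts in WT, 679, 632 and 783 in the HIF-1β KIN clone and 225, 72.8 and 275 in the HIF-2α KIN clone, mean ratios of 69.0 and 18.9. HIF-1β KIN lay above HIF-2α KIN in every library. TNFAIP6 had 27.3, 18.4 and 11.2 in WT, 401, 366 and 205 in the HIF-1β KIN clone and 169, 234 and 242 in the HIF-2α KIN clone, mean ratios of 17.1 and 11.3. No library of a clone overlapped a WT library for any of the 6 genes.

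All 6 passed the call in both clones, but the genes were chosen on these contrasts, so nothing is read from it. Over all genes 1.38% passed in the HIF-1β KIN clone and 4.14% in the HIF-2α KIN clone. Among called genes with a mean of at least 50 normalised counts and no overlap with WT, TMEFF2 and TNFAIP6 ranked 1 and 3 of 84 higher genes in the HIF-1β KIN clone and 14 and 26 of 454 in the HIF-2α KIN clone by fitted change. RCSD1, NUP210, HS6ST2 and PTPRS ranked 1, 2, 12 and 17 of 144 lower genes in the HIF-1β KIN clone and 1, 5, 2 and 10 of 310 in the HIF-2α KIN clone. The order of genes near 0 depends on the prior count of the fit.

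The tagged genes themselves were not lost. ARNT had 1622 ± 144 normalised counts in WT, 1606 ± 298 in the HIF-1β KIN clone and 1618 ± 354 in the HIF-2α KIN clone (SD, n = 3 each). EPAS1 had 14498 ± 2021 in WT, 10384 ± 2962 in the HIF-1β KIN clone and 6177 ± 497 in the HIF-2α KIN clone, where its 3 libraries (5801 to 6741) lay below the 3 of WT (12563 to 16596). The tag does not remove the counted exons, so these counts say nothing of the tagging itself.

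**Figure D1:**
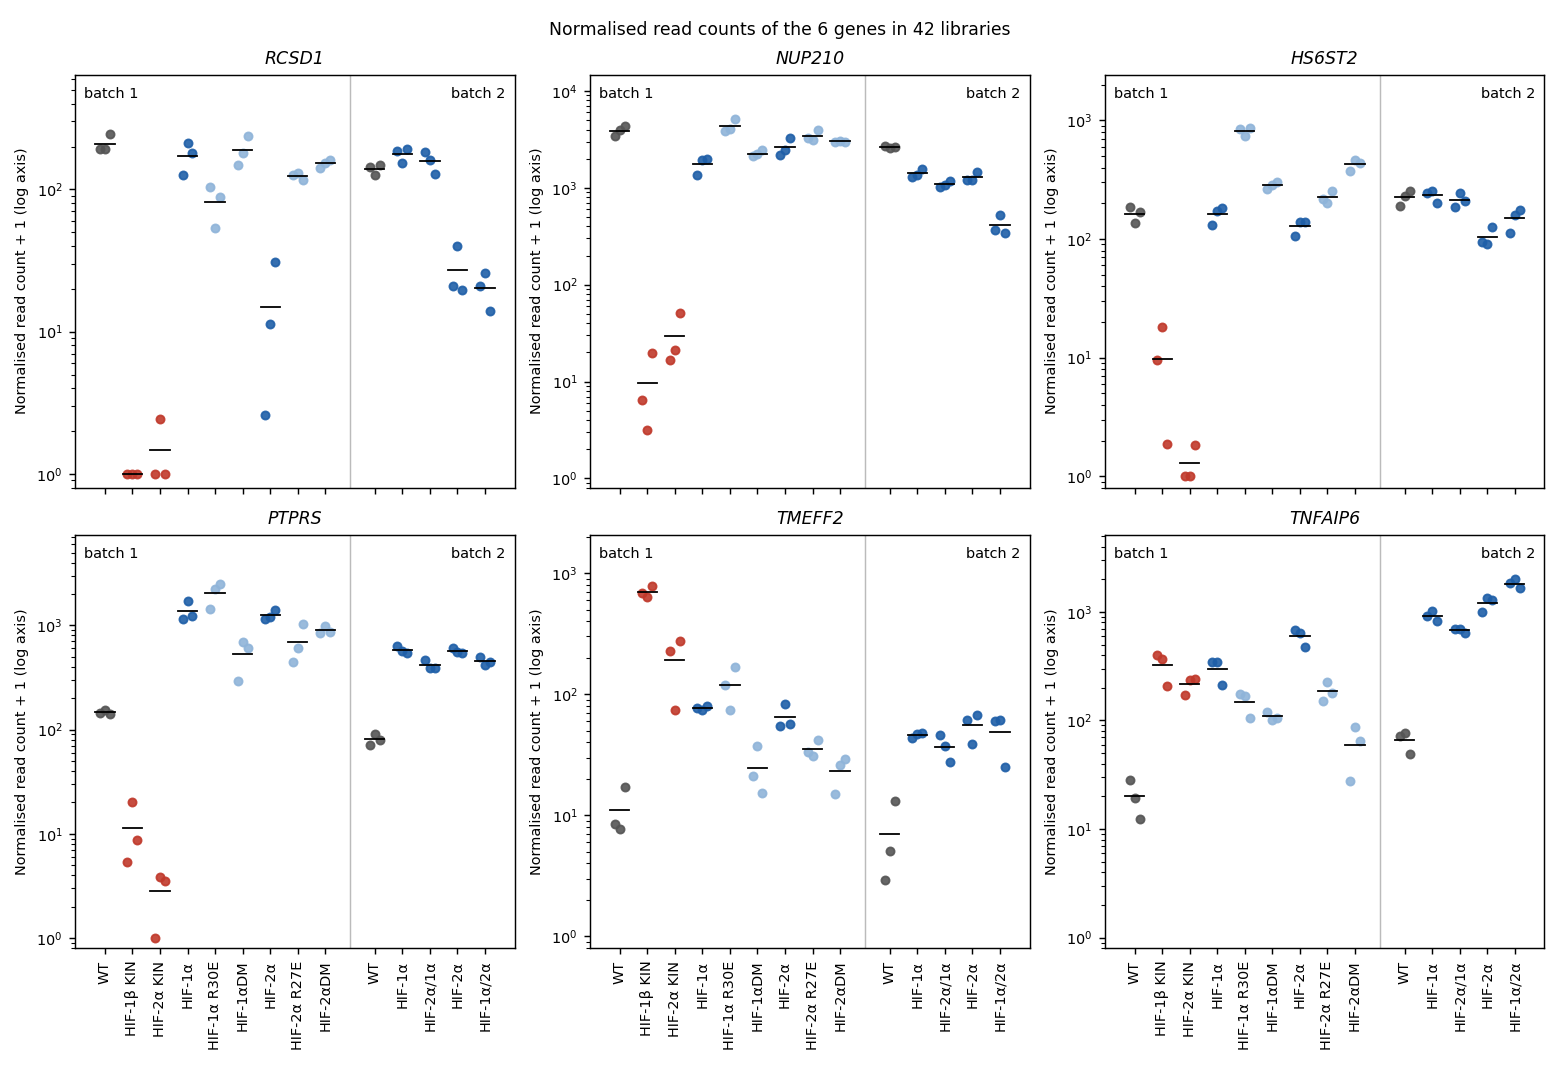
Normalised read count plus 1 (log axis) of each gene in every library, by group; grey, WT; red, KIN clones; dark blue, transgenes without these substitutions; light blue, the mutants R30E, R27E and DM; black bars, group means; batch 1 left of the line and batch 2 right of it. RCSD1 was at 0 in all 3 HIF-1β KIN libraries, and PTPRS was below WT in both clones but above WT in every transgene line of both batches.

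In the transgene lines of batch 1, TNFAIP6 and TMEFF2 were above WT on average as in the clones, and PTPRS lay on the other side of WT. PTPRS, low in both clones, was higher than in WT in all 6 lines, with mean ratios of 9.45 (HIF-1α), 14.2 (R30E), 3.64 (HIF-1αDM), 8.61 (HIF-2α), 4.77 (R27E) and 6.20 (HIF-2αDM). Its lowest transgene library (294) lay above the highest WT library (154). The mutants are among these lines.

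TNFAIP6, high in both clones, was also higher than in WT in all 6 lines, with ratios of 15.8 (HIF-1α), 7.81 (R30E), 5.69 (HIF-1αDM), 31.4 (HIF-2α), 9.71 (R27E) and 3.11 (HIF-2αDM). A single library of HIF-2αDM (26.6) fell within the WT range (11.2 to 27.3). TMEFF2 had ratios of 7.55, 11.7, 2.31, 6.31, 3.41 and 2.20 in the same order, and its 3 highest library values outside the clones were 166 and 117 in R30E and 82.7 in HIF-2α, all below the libraries of HIF-1β KIN (632 to 783) but within the range of HIF-2α KIN (72.8 to 275).

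NUP210 never came near its level in the clones: its lowest transgene library, in HIF-1α, had 1351 normalised counts, and group means ran from 1756 ± 351 (HIF-1α) to 4339 ± 667 (R30E; SD, n = 3 each). HS6ST2 ran from 127 ± 18.8 (HIF-2α) to 815 ± 73.2 (R30E), where WT had 162 ± 25.3. RCSD1 was the exception, with 1.58, 10.3 and 29.8 normalised counts in the HIF-2α line against 191.6 to 242 in WT, while the other 5 lines ran from 52.2 to 237. Thus 1 of the 4 genes that were silent in the clones was also nearly silent in a transgene line.

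**Figure D2:**
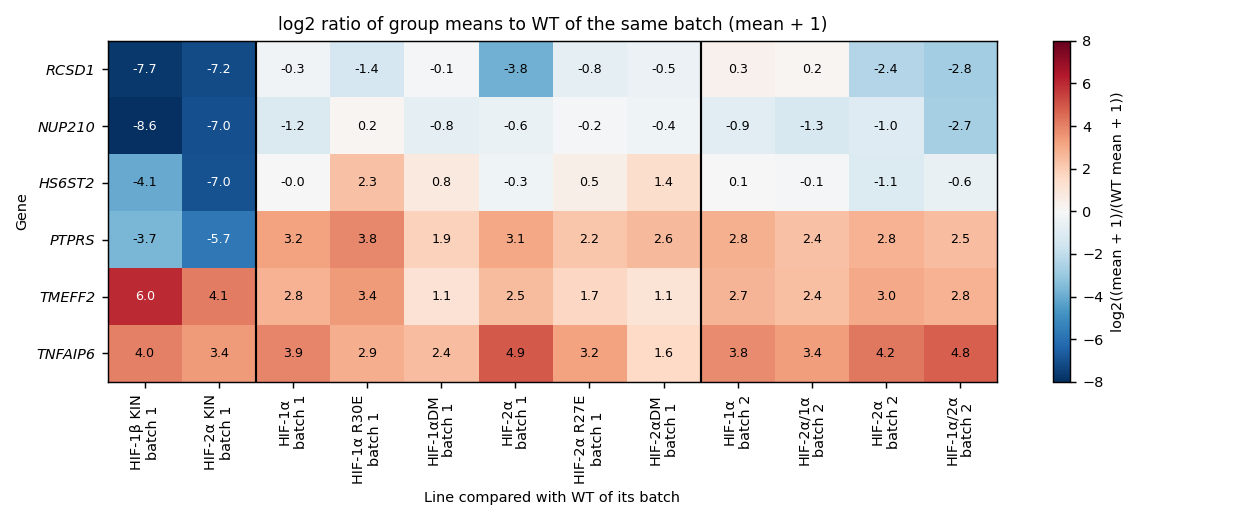
Each cell gives log2 of the ratio of group means, each mean plus 1 normalised count, of a line (columns) to WT of its own batch for each gene (rows); the added count understates ratios of genes near 0. PTPRS is negative in both KIN clones and positive in all 10 transgene columns, and RCSD1 is below -2 only in the clones, the HIF-2α lines of both batches and HIF-1α/2α.

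Within batch 1, HIF-1α or HIF-2α can be tested against its own mutants, which carry the same vector and selection, with neither WT nor clones in the contrast. The gene of the other subunit differed as well. EPAS1 was called higher in HIF-1α than in its mutants (log2 1.08 ± 0.17, adjusted p 7.46e-05). HIF1A was called higher in HIF-2α than in its mutants (log2 2.17 ± 0.19, adjusted p 3.32e-09). The part of this in the changes below was not tested. For HIF-1α against the mean of R30E and HIF-1αDM, 2 of 6 genes were called, where 1.87% of all genes were. TNFAIP6 was higher: the HIF-1α libraries had 344, 344 and 209 normalised counts and the mutants 100 to 174, a log2 change of 1.24 ± 0.28 (SE; adjusted p 0.00661). HS6ST2 was lower, with 131, 172 and 182 in HIF-1α against 263 to 867 in the mutants (log2 -1.57 ± 0.29, adjusted p 0.000893). WT, which is not in this contrast, had 134 to 184. HIF-1α thus overlapped WT, and the mutants lay above WT.

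Both calls depended on single libraries. TNFAIP6 lost its call without HIF-1α replicate 1 or 2, R30E replicate 3 or any HIF-1αDM library, with adjusted p of 0.0120 to 0.0646 and log2 changes of 1.13 to 1.28. HS6ST2 lost its call without HIF-1α replicate 1 (adjusted p 0.0161). NUP210 was lower in HIF-1α than in every mutant library (1351 to 1971 against 2120 to 5107) but was not called (log2 -0.84 ± 0.25, adjusted p 0.0510).

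For HIF-2α against the mean of R27E and HIF-2αDM, 3 of 6 genes were called, against 4.63% of all genes. TNFAIP6 had 681, 635 and 472 normalised counts in HIF-2α and 26.6 to 223 in the mutants, with no overlap (log2 2.51 ± 0.28, adjusted p 2.07e-07). RCSD1 fell, from 116 to 161 in the mutants to 1.58, 10.3 and 29.8 (log2 -3.20 ± 0.46, adjusted p 1.54e-05; -4.47 without HIF-2α replicate 3). HS6ST2 had 106, 137 and 139 against 201 to 463 (log2 -1.27 ± 0.29, adjusted p 0.00316). Here too HIF-2α overlapped WT (134 to 184), and the mutants lay above WT.

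The HS6ST2 call was lost without any 1 of the 3 HIF-2α libraries (adjusted p 0.0118 to 0.0330). TMEFF2 had 53.7, 82.7 and 55.3 in HIF-2α and 13.9 to 41.2 in the mutants, without overlap, and missed the threshold (log2 1.19 ± 0.35, adjusted p 0.0248), which it passed with DESeq2 (adjusted p 0.00536) and with no filter on low counts (0.00204). PTPRS (0.66 ± 0.26, adjusted p 0.109) and NUP210 (-0.28 ± 0.24, adjusted p 0.530) were not called.

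The mutants were not alike. R30E differed from HIF-1αDM in 3 of 6 genes, against 0.500% of all genes. PTPRS had 1443, 2225 and 2498 normalised counts in R30E and 294, 688 and 604 in HIF-1αDM (log2 1.96 ± 0.32, adjusted p 0.000801). TMEFF2 had 117, 73.3 and 166 against 19.9, 36.1 and 14.2 (log2 2.35 ± 0.42, adjusted p 0.00247), and HS6ST2 846, 731 and 867 against 263, 282 and 301 (log2 1.53 ± 0.32, adjusted p 0.00915). The 2 lines did not overlap for any of these genes.

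Leaving out 1 library ended the HS6ST2 call in 6 of 6 cases (adjusted p 0.0182 to 0.0697), the TMEFF2 call without R30E replicate 3, HIF-1αDM replicate 1 or HIF-1αDM replicate 3 (0.0275 to 0.0313) and the PTPRS call without HIF-1αDM replicate 1 (0.0127). TMEFF2 was also not called with only these 2 lines in the fit (0.0132). RCSD1 had 103, 52.2 and 87.9 in R30E and 148, 180 and 237 in HIF-1αDM, without overlap and without a call (log2 -1.22 ± 0.42, adjusted p 0.276). For R27E against HIF-2αDM edgeR called 0 of 6 genes and 0.0256% of all genes, with 2 of 6 at an unadjusted p under 0.05, and DESeq2 called 1 of 6. That gene was TNFAIP6, at 150, 223 and 179 in R27E and 26.6, 86.5 and 63.8 in HIF-2αDM (edgeR log2 1.63 ± 0.35, adjusted p 0.105; DESeq2 adjusted p 0.00193).

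Batch 2, none of whose libraries took part in the choice of the genes, gave the lines against WT. HIF-1α called 3 of 6 genes (background 4.39%), HIF-2α 6 of 6 (7.58%), HIF-2α/1α 4 of 6 (3.49%) and HIF-1α/2α 5 of 6 (7.78%). These 4 comparisons share the WT libraries, so they are not independent of one another. As in batch 1, the lines were selected with puromycin and WT was not.

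PTPRS rose in all 4 lines. WT had 69.3, 90.6 and 79.2 normalised counts, HIF-1α 630, 571 and 538, HIF-2α/1α 459, 391 and 388, HIF-2α 602, 548 and 536, and HIF-1α/2α 499, 413 and 446. The lines were 5.14-fold to 7.23-fold above WT, with log2 changes of 2.85 ± 0.14, 2.36 ± 0.14, 2.81 ± 0.14 and 2.50 ± 0.14 in that order and adjusted p of at most 4.87e-18. The direction is the opposite of that in the KIN clones.

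TNFAIP6 rose in all 4 lines as well. WT had 71.3, 76.0 and 48.1 normalised counts, HIF-1α 923, 1015 and 829, HIF-2α/1α 691, 702 and 631, HIF-2α 1003, 1334 and 1289, and HIF-1α/2α 1828, 1987 and 1656. Log2 changes were 3.81 ± 0.14, 3.36 ± 0.14, 4.20 ± 0.14 and 4.79 ± 0.14 (adjusted p of at most 1.06e-23), from 10.3-fold to 27.7-fold. No 2 of the 4 lines overlapped in their libraries except HIF-1α and HIF-2α, whose ranges met (829 to 1015 and 1003 to 1334).

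TMEFF2 was again rare in WT, at 1.93, 4.04 and 12.0 normalised counts, of which 1 library lay below the floor. It had 42.4, 45.5 and 46.4 in HIF-1α, 44.9, 36.2 and 26.6 in HIF-2α/1α, 60.5, 38.1 and 66.9 in HIF-2α and 58.9, 60.7 and 23.9 in HIF-1α/2α. The log2 changes of 2.91 ± 0.47, 2.59 ± 0.48, 3.21 ± 0.47 and 3.00 ± 0.47 (adjusted p of at most 4.00e-05) had overlapping libraries between the lines. Without WT replicate 3, the highest of WT, they became 3.82, 3.50, 4.12 and 3.92. The highest library, at 66.9, compares with 72.8 to 275 in HIF-2α KIN and 632 to 783 in HIF-1β KIN, although the batches were normalised apart.

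Of the genes silent in the clones, RCSD1 and NUP210 were both called lower in HIF-2α and HIF-1α/2α. RCSD1 had 143, 125 and 146 normalised counts in WT, 19.8, 39.3 and 18.8 in HIF-2α and 19.9, 25.0 and 13.0 in HIF-1α/2α, 5.34-fold and 7.15-fold lower (log2 -2.42 ± 0.27 and -2.84 ± 0.27, adjusted p 2.32e-10 and 6.54e-12). With the HIF-1α IDR it was at 184, 152 and 190.5 in HIF-1α and 183, 159 and 128 in HIF-2α/1α, and was not called (log2 0.34 ± 0.22 and 0.18 ± 0.22, 95% intervals -0.15 to 0.84 and -0.32 to 0.67). So the libraries split cleanly by IDR, at most 39.3 with that of HIF-2α and at least 128 with that of HIF-1α.

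NUP210 had 2722, 2580 and 2613 normalised counts in WT and was lower in every library of the 4 lines. HIF-1α had 1307, 1368 and 1549 (log2 -0.91 ± 0.10, under the 2-fold threshold, adjusted p 2.69e-10), HIF-2α 1207, 1217 and 1466 (-1.03 ± 0.10, adjusted p 4.45e-12), HIF-2α/1α 1023, 1066 and 1167 (-1.28 ± 0.10, adjusted p 2.14e-14) and HIF-1α/2α 370, 527 and 342 (-2.68 ± 0.11, adjusted p 5.51e-25). The call for HIF-2α lay at the threshold and was lost without HIF-2α replicate 1 or 2 (both log2 -0.99). Even the lowest group, HIF-1α/2α, kept 413 ± 99.9 counts (SD, n = 3), where the batch 1 clones had 8.77 ± 8.84 and 28.5 ± 18.6.

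HS6ST2 had 190.7, 229 and 251 normalised counts in WT, 245, 253 and 200 in HIF-1α and 185, 241 and 206 in HIF-2α/1α, all overlapping. It was called in HIF-2α alone (93.2, 90.1 and 126; log2 -1.12 ± 0.19, adjusted p 3.60e-06), and HIF-1α/2α (112, 159 and 175) was lower by less than 2-fold (log2 -0.60 ± 0.18, adjusted p 0.00797). Its 1 called change was thus 2.17-fold, where the clones lost it almost entirely.

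**Figure D3:**
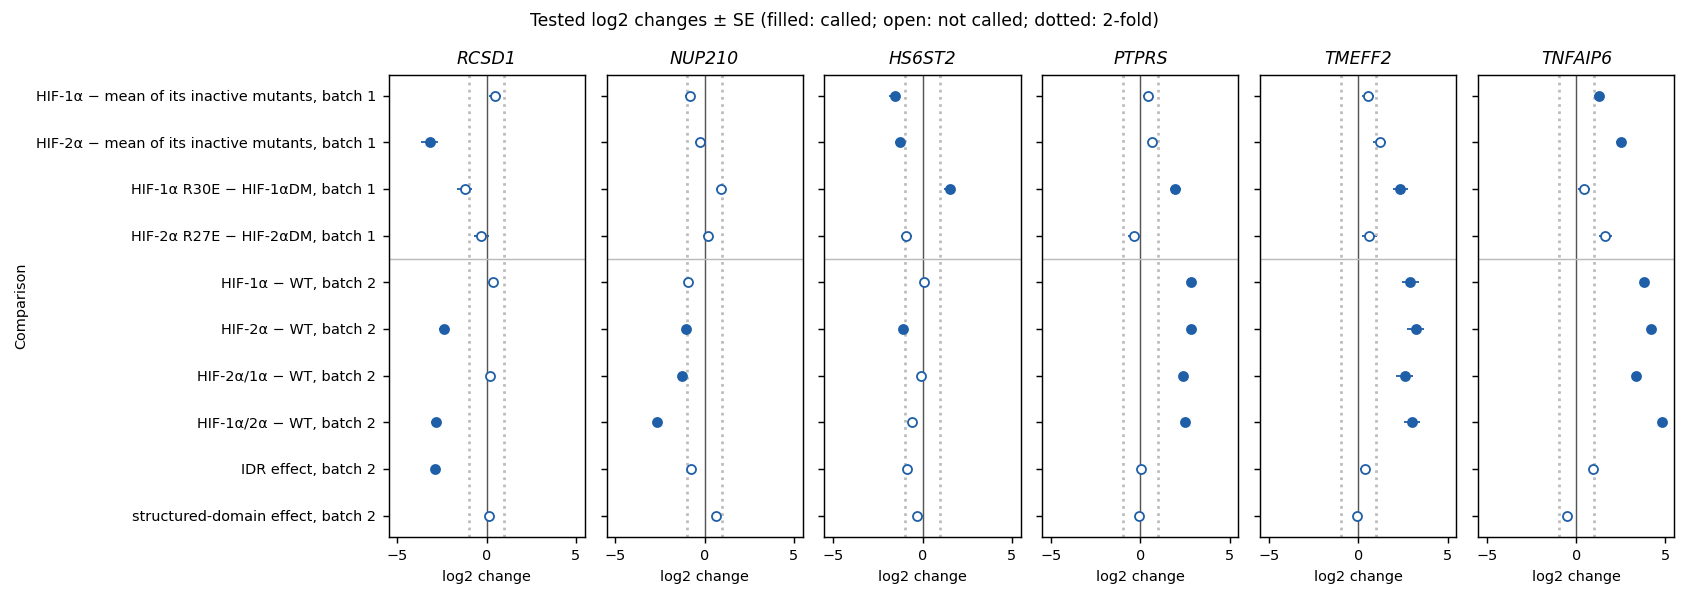
Log2 change (horizontal axis, ± SE) of each gene in the 10 tested comparisons (rows; batch 1 above the line, batch 2 below); filled points were called, open points were not, and dotted lines mark a 2-fold change. PTPRS, TMEFF2 and TNFAIP6 lie right of the upper line in all 4 lines of batch 2, and RCSD1 lies left of the lower line for HIF-2α in both batches, for HIF-1α/2α and for the IDR effect.

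The 4 lines of batch 2 form an exchange of domains, so the effect of the IDR (HIF-2α IDR minus HIF-1α IDR, over both structured domains) and of the structured domain can be tested without WT. For the IDR 1 of 6 genes was called, against 4.41% of all genes. That gene was RCSD1, 7.41-fold lower with the HIF-2α IDR (log2 -2.89 ± 0.19, adjusted p 4.71e-17). Under 2-fold but with small adjusted p, TNFAIP6 was higher with the HIF-2α IDR (0.91 ± 0.07, adjusted p 4.95e-14) and HS6ST2 and NUP210 were lower (-0.85 ± 0.13 and -0.76 ± 0.07, adjusted p 9.07e-07 and 5.53e-12). For TMEFF2 (0.36 ± 0.27, 95% interval -0.25 to 0.96) no effect was detectable. For PTPRS the mean effect was 0.05 ± 0.09 (-0.14 to 0.24), made up of effects of opposite sign, -0.35 ± 0.12 on the structured domain of HIF-1α and 0.45 ± 0.12 on that of HIF-2α.

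For the structured domain edgeR and DESeq2 both called 0 of 6 genes, against 1.04% of all genes by edgeR, and 3 of 6 had an unadjusted p under 0.05. NUP210 was higher with the structured domain of HIF-2α (log2 0.64 ± 0.07, adjusted p 2.83e-09) and TNFAIP6 lower (-0.52 ± 0.07, adjusted p 4.89e-07), both under 2-fold. The interaction of the 2 domains was called for 1 of 6 genes, against 1.18% of all genes. It was NUP210 (log2 -2.03 ± 0.15, adjusted p 2.86e-14), which was lowest in HIF-1α/2α alone.

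The neighbours of each gene on its chromosome were compared in the clones, as a description. Within 500 kb of the 6 starts 44 genes were tested in batch 1, and edgeR called 0 of 44 in either clone, with 5 in the HIF-1β KIN clone and 7 in the HIF-2α KIN clone at an unadjusted p under 0.05 (DESeq2 was not run on these contrasts). Over all genes 1.38% and 4.14% were called, and 13.0% and 22.4% had an unadjusted p under 0.05. Of 23 nearest protein-coding neighbours, 16 had at least 50 normalised counts in WT, and their log2 changes ran from -0.32 to 0.67 in the HIF-1β KIN clone and from -0.32 to 1.00 in the HIF-2α KIN clone.

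Next to RCSD1, CREG1 (at -76.3 kb) had 1484 normalised counts in WT, 1932 in the HIF-1β KIN clone and 1995 in the HIF-2α KIN clone, and MPZL1 (at 91.1 kb) 10926, 13491 and 11571. Next to NUP210, the histone deacetylase HDAC11 (59.4 kb away) had 1840, 1762 and 1882. TNFAIP6 lies between NMI and RIF1, at 1335, 1546 and 1254 and at 1903, 1998 and 1520. Around PTPRS, KDM4B had 5789, 5459 and 4955 and SAFB2 6354, 6750 and 6613. The heparan sulfate core protein gene GPC4, 454 kb from HS6ST2, had 1281, 2037 and 2556. TMEFF2 had CAVIN2 as its nearest protein-coding neighbour tested, near the floor in WT (1.80) and HIF-1β KIN (1.57) and at 18.7 in HIF-2α KIN. Medians over all genes of the 5 chromosomes lay between -0.11 and 0.00 on the log2 scale in both clones, so none of these chromosomes stood apart.

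**Figure D4:**
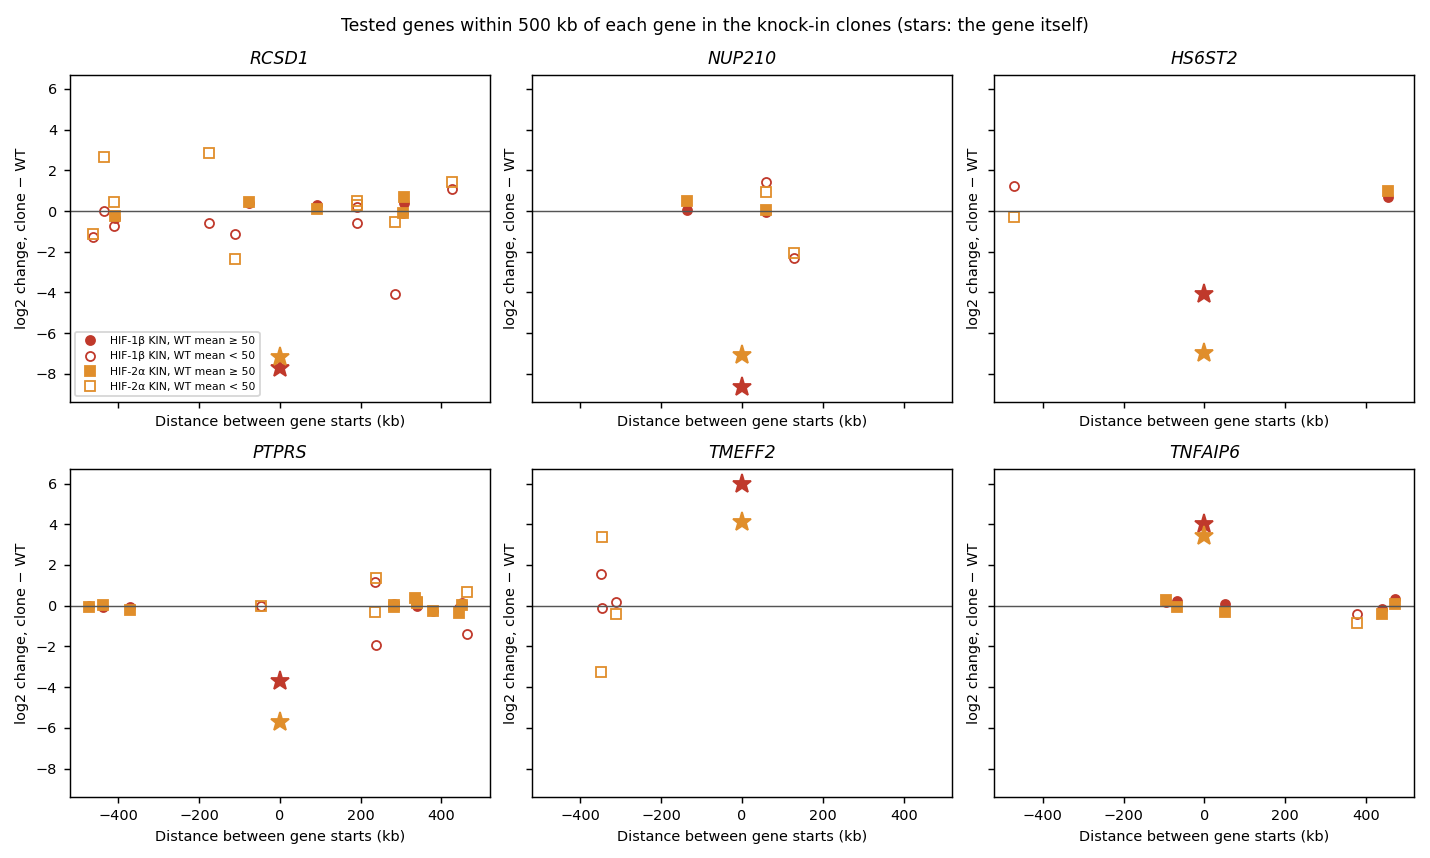
Log2 change in HIF-1β KIN (red circles) and HIF-2α KIN (orange squares) minus WT of genes tested within 500 kb of each gene, against the distance between gene starts (kb); open symbols mark genes below 50 normalised counts in WT, and stars give the gene itself as the log2 ratio of means plus 1. Neighbours with at least 50 counts lie between -0.43 and 1.00 (GPC4 beside HS6ST2, in HIF-2α KIN), and the stars at -3.68 or lower or 3.43 or higher.

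Other genes of the pathways were counted without the 6 genes, over the 10 tested comparisons, in which 0.0256% to 7.78% of all genes were called. Of 31 or 32 tested nucleoporins, the group of NUP210, edgeR and DESeq2 called 0 in every comparison. At an unadjusted p under 0.05, edgeR had 0 to 5 in batch 1 and 16 to 26 in batch 2, where 4.34% to 23.4% and 27.2% to 41.2% of all genes had one. In batch 2 medians of nucleoporins ran from -0.36 to -0.05 and those of all genes from -0.01 to 0.08. Of 14 tested genes of actin capping, the group of RCSD1, 0 or 1 was called in a comparison. CARMIL2, a regulator of CapZ, was higher with the structured domain of HIF-2α (log2 1.73 ± 0.13, adjusted p 1.79e-14), with 411 ± 50.8 normalised counts in HIF-2α, 315 ± 15.7 in HIF-2α/1α, 180 ± 49.0 in HIF-1α and 65.7 ± 5.29 in HIF-1α/2α (SD, n = 3 each).

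The hyaluronan pathway around TNFAIP6 had called genes in 9 of the 10 comparisons, 1 to 6 of 18 or 19, with the 6 for the IDR effect (4.41% of all genes). The hyaluronan synthase HAS2 rose from 12.9 ± 7.13 in WT to 795 ± 154 in HIF-1α/2α (log2 5.94 ± 0.23, adjusted p 9.85e-26), with 313 ± 48.3 in HIF-1α, 155 ± 18.2 in HIF-2α/1α and 250.4 ± 16.7 in HIF-2α. ITIH5, a relative of the inter-α-inhibitor heavy chains, rose from 183 ± 41.6 to 11436 ± 229.7 in HIF-2α (log2 5.98 ± 0.12, adjusted p 1.78e-36). HAS1 was called lower with the HIF-2α IDR (adjusted p 0.00939) at 0.391 and 0.276 normalised counts, below the floor. With the IDR effect, 2 of 19 were higher and 4 lower, with a median of -0.31 against 0.02 for all genes.

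For heparan sulfate, 0 to 2 of 18 tested enzymes were called in a comparison, with 2 in HIF-2α and HIF-1α/2α against WT (7.58% and 7.78% of all genes). The sulfatase gene SULF2, which removes the 6-O-sulfate that HS6ST2 adds, rose from 10.6 ± 5.60 in WT to 254 ± 11.7 in HIF-1α (log2 4.59 ± 0.28, adjusted p 7.82e-18), and HS3ST1 fell from 86.7 ± 5.97 to 34.8 ± 12.3 in HIF-2α (log2 -1.32 ± 0.31, adjusted p 0.000562). Among 13 or 14 core proteins 0 to 4 were called, with 4 in HIF-1α/2α. GPC1 rose from 9002 ± 143 to 27161 ± 1452 in HIF-2α (log2 1.59 ± 0.05, adjusted p 1.38e-27), GPC6 was lower with the HIF-2α IDR (-1.63 ± 0.06, adjusted p 1.71e-26), and in batch 1 SDC2 was lower in HIF-2α than in its mutants (-1.42 ± 0.17, adjusted p 6.94e-07).

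Of 18 or 19 LAR phosphatases and partners, the group of PTPRS, 0 to 4 were called, with 4 in HIF-1α (4.39% of all genes), HIF-2α and HIF-1α/2α. PPFIA4, a liprin-α that binds these phosphatases inside the cell, rose from 107 ± 31.0 to 3695 ± 342 in HIF-1α (log2 5.10 ± 0.14, adjusted p 9.10e-31), and in batch 1 it was higher in HIF-1α than in its mutants (4.81 ± 0.42, adjusted p 6.86e-09). SLITRK4, an extracellular partner, was lower with the HIF-2α IDR (-2.81 ± 0.21, adjusted p 6.08e-15). Among 10 or 13 proteins with follistatin domains 0 to 3 were called, with 3 in HIF-2α. WFIKKN1 rose from 36.8 ± 2.90 to 204 ± 11.4 in HIF-1α/2α (2.47 ± 0.25, adjusted p 2.68e-11), and TMEFF1, the paralogue of TMEFF2, fell from 32.2 ± 4.68 to 8.89 ± 4.64 in HIF-2α (-1.82 ± 0.53, adjusted p 0.00505).

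The genes whose pattern was most like each member were sought over the 14 group means, as log2 of the mean plus 1 centred within each batch, among 15120 genes. Groups of a batch share libraries, depth and normalisation, and the pattern of the clones that chose the 6 genes weighs heavily, so Pearson's r is given as a description. For RCSD1 the closest was KCNH2 (r = 0.98), a potassium channel gene, with 5206 normalised counts in WT of batch 1, 28.6 in the HIF-1β KIN clone and 23.2 in the HIF-2α KIN clone, and in batch 2 with 3264 in WT, 2056 in HIF-1α and 641 in HIF-2α. UNC5B had an r of 0.94.

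For NUP210, PLEKHG1 and XKR9 had r of 0.96. For PTPRS the closest were AC026412.1 (0.99), AJAP1 (0.98) and MMP16 (0.96). AJAP1 went from 34.1 in WT to 0.359 and 0.476 in the clones, below the floor, and from 33.1 in WT of batch 2 to 152 in HIF-1α and 141 in HIF-2α, so it too was low in the clones and high with the transgenes.

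HS6ST2 was most like GRK5 (0.95), RHOD (0.94) and PHETA2 (0.93), and RHOD, a small GTPase, went from 40.1 in WT to 0.998 and 0.436 in the clones. The closest to TMEFF2 were NEO1 (0.92), VWDE (0.90) and ITGA3 (0.89), and those to TNFAIP6 were AC090152.1 (0.96), FAAP100 (0.95) and HLX (0.93). VWDE went from 8.99 in WT to 92.1 in the HIF-1β KIN clone and 72.9 in the HIF-2α KIN clone. NEO1 and FAAP100 changed by small amounts, from 1620 to 2787 and from 8027 to 9378 normalised counts between WT and HIF-1β KIN. Their groups did not rank in quite the same order as those of TMEFF2 and TNFAIP6.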

How the data were processed

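Poly-A RNA-seq of 42 libraries was analysed. The authors deposited raw read counts per gene, not normalised; per the labels and the study's methods, reads were aligned to hg38 with STAR and uniquely mapped reads were counted without strand by HTSeq on GENCODE genes. The methods and the submitters' processing notes (STAR 2.7, HTSeq 0.11.1, SAMtools 1.9) give different versions of STAR and HTSeq. RNA was extracted by column in batch 1 and by TRIzol in batch 2, so batches were fitted apart. Library totals and the floor of 3 counts are given above, and intervals cover counting error only.

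Counts of genes with a mean of at least 0.5 normalised counts were fitted with edgeR 4.0.16 (R 4.3.3, limma 3.58.1; TMM, quasi-likelihood, all groups of a batch in 1 fit), with Benjamini-Hochberg adjustment over all genes tested and a call at adjusted p of at most 0.01 and a fold of at least 2. Intervals of log2 changes are at 95%. The study calls the replicates biological but does not say whether they were separate cultures, so p-values measure the spread between these libraries. The fit was tested on simulated data: for R30E against HIF-1αDM (23410 genes) 16% of 2-fold and 95% of 4-fold changes reached the adjusted p, and for HIF-1α against WT in batch 2 (28724 genes) 93% and 100%. The simulated counts had a single dispersion for all genes and no replicate structure, and only genes above a minimum mean count were changed. These shares need not hold for genes with few counts or a wider spread. The 6 genes and the pathway and marker lists were chosen with earlier results of these data known. Beside the 6 genes and the tagged ARNT and EPAS1, the text names up to 3 called genes per list and batch (largest change), up to 3 nearest protein-coding neighbours on each side, and the 3 genes of highest r, some of which are not reported here. DESeq2 1.42.0, other size factors, no filter, only the groups compared, a replicate block and leaving out each library were the alternatives.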

Additional observations from a re-analysis of the deposited data

Results flagged for a closer look

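NUP210 and PTPRS responded differently to the exchange of the IDR on the structured domains of HIF-1α and HIF-2α, by edgeR's test of the interaction with Benjamini-Hochberg adjustment over all genes. For NUP210 the interaction was -2.03 ± 0.15 on the log2 scale (adjusted p 2.86e-14): the HIF-2α IDR in place of that of HIF-1α gave -1.78 ± 0.11 on the structured domain of HIF-1α (adjusted p 2.86e-18) and 0.26 ± 0.10 on that of HIF-2α (adjusted p 0.0610). For PTPRS the interaction was -0.80 ± 0.17 (adjusted p 0.000897), with -0.35 ± 0.12 (adjusted p 0.0217) and 0.45 ± 0.12 (adjusted p 0.00427), both under 2-fold. PTPRS was thus lower in the 2 chimeras (388 to 499 normalised counts) than in HIF-1α and HIF-2α (536 to 630), without overlap.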

How the results depend on the processing

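No called change of the 6 genes reversed under any alternative run. Of the changes not called, 4 crossed 0 when 1 library was left out: HS6ST2 in HIF-1α (-0.04 to 0.16) and HIF-2α/1α (-0.19 to 0.01) against WT, and the structured-domain effect of RCSD1 (-0.08 to 0.23) and TMEFF2 (-0.22 to 0.05). For R27E against HIF-2αDM the count of genes called went from 0 to 1 (TNFAIP6) with DESeq2, with no filter and with the replicate block. Leaving out 1 library gave 0 to 2 called genes for R30E against HIF-1αDM and 0 to 2 for HIF-1α against its mutants. In HIF-2α KIN the fitted log2 change ran from -10.73 to -8.01 for RCSD1 and from -10.33 to -7.96 for HS6ST2, lowest without the 1 library that held the only read. Over all genes, R30E against HIF-1αDM had 117 calls, 209 with DESeq2, 218 with no filter and 227 with the block, and R27E against HIF-2αDM had 6, 23, 40 and 26, and 0 with only the groups compared. Of the 18 most-like genes, 14 stayed with a pseudocount of 5, 4 with Spearman's rho and 8 over batch 1 alone.

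Same-numbered libraries of different lines deviated together in batch 1. Mean r was 0.31, 0.32 and 0.64 for replicates 1, 2 and 3, against -0.20 between other numbers. In batch 2 mean r was 0.01, 0.07 and 0.08, against -0.03. Libraries were centred on the mean of their line, which makes r between other numbers negative where same-number r is positive. The negative values are therefore no separate baseline. Over 0.1 were 102 of 108 same-number pairs in batch 1 and 6 of 30 in batch 2. In all, 24 of 27 and 12 of 15 libraries correlated best with their own number. This is a hint from the data only, since the labels state no pairing, and the main fit held no replicate block. Which batch 1 changes were called therefore depends in part on that choice. With the replicate block TMEFF2 passed in HIF-2α against its mutants (adjusted p 0.00640) and TNFAIP6 in R27E against HIF-2αDM (adjusted p 0.00450). In the simulation, a 2-fold change for R30E against HIF-1αDM was mostly not detectable.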

Other observations

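Genes of the same pathways in the KIN clones, against WT of batch 1 and as values only, were not all low or all high. SLITRK4, an extracellular partner of LAR phosphatases, had 199 ± 25.0 normalised counts in the HIF-1β KIN clone and 183 ± 59.4 in the HIF-2α KIN clone against 25.5 ± 9.18 in WT, and SLITRK2 had 365 ± 46.0 and 215 ± 13.9 against 804 ± 131 (SD, n = 3 each). The hyaluronan synthase HAS2 had no read in either clone and was at or under the floor in WT, while ITIH5 had 466 ± 138 in the HIF-1β KIN clone and 1626 ± 350.3 in the HIF-2α KIN clone against 618 ± 121. SDC2, a heparan sulfate core protein, had 12005 ± 1792 and 8127 ± 1699 against 6681 ± 785.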
